A study of Mus musculus with 18 samples.

Results

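Fat cells take up fatty acids from triglyceride-rich lipoproteins in the blood and from albumin. The expression of 8 genes of this route was measured in inguinal fat of tumour-bearing and control mice: Lpl, Gpihbp1, Angptl4, Vldlr, Cd36, Slc27a1, Slc27a4 and Fabp4. The genes were chosen by symbol, from what their products are known to do, and with earlier results of these data known. All 8 were found among the 21899 gene IDs of the tables, and all 8 passed the filter on low counts in every comparison.

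Lipoprotein lipase, the product of Lpl, is made by fat cells and carried to the inner wall of capillaries, where it splits the triglycerides of chylomicrons and very low density lipoproteins. GPIHBP1, a protein of capillary endothelium, takes the enzyme across the cell and holds it there, and ANGPTL4 inactivates it. The freed fatty acids enter fat cells with the help of CD36 and of the fatty acid transport proteins of the SLC27 family, and FABP4 carries them inside the cell. In white fat, lipase activity is known to be high after feeding and low in fasting, when ANGPTL4 is high.

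Male C57BL/6J mice were injected under the skin with Lewis lung carcinoma cells (LLC), a line derived from a lung tumour of a C57BL mouse, or with phosphate-buffered saline as the control (PBS). RNA of the inguinal depot, a subcutaneous white fat, was sequenced in 5 LLC and 4 PBS libraries of day 7, labelled pre-cachexia, and in 5 LLC and 4 PBS libraries of day 21, labelled cachexia (the wasting of fat and muscle in cancer). No genetic change is named for any group, and the sources used here do not state their age. The labels do not say whether a library is 1 mouse or a pool, so the p-values measure the spread between these libraries, which may be partly technical.

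Library totals ran from 14566155 to 18969387 counts. In every library, 12 mature adipocyte markers such as Adipoq and Plin1 summed to at least 16853 CPM (counts scaled to the library total), so fat cell RNA was present throughout. Some libraries stood apart. In day 21 PBS library 4, 12 macrophage markers summed to 2757 CPM, against 261 to 428 CPM in the other 3 PBS libraries of that day. Day 21 LLC library 3 had 2080 CPM of B cell and lymph node markers, against at most 340 CPM elsewhere, and day 21 LLC library 1 had the highest macrophage sum, 3718 CPM. Skeletal muscle markers reached 6886 CPM in day 7 PBS library 3 and 4952 CPM in day 21 PBS library 1. No marker of the cell type lists was at 0 in all libraries of a group. In bulk tissue, fewer cells of a type and less RNA per cell cannot be told apart.

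The DNA before the start of Slc27a4 and Vldlr is shown because in both genes every day 21 LLC library was below every day 21 PBS library, and because both are among the 4 genes (with Cd36 and Slc27a1) found in the RefSeq promoter table used here. Each line gives the 250 bases before the most upstream start in that table, on GRCm38.p6, plus strand, 5′ to 3′. The window of Slc27a4 is chr2:29802384-29802633 and that of Vldlr is chr19:27216234-27216483.
Slc27a4: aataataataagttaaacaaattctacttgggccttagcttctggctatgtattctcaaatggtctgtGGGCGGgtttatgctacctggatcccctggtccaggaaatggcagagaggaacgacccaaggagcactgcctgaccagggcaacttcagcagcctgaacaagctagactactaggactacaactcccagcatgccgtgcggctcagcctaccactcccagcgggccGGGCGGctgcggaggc
Vldlr: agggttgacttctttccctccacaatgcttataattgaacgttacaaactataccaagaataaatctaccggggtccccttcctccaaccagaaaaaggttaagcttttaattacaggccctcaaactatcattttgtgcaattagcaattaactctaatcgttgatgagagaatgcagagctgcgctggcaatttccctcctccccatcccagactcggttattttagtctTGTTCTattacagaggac
Capitals mark the matches to 7 motifs searched on both strands: AGGTCA (core motif of nuclear receptors), AGGTCANAGGTCA (the paired element bound by PPARs, which holds the single core motif), AGAACA (core motif of the glucocorticoid receptor), CACGTG (E box), GGGCGG (GC box), CCAAT and TATAAA. Slc27a4 had 2 GC boxes, at bases -182 to -177 and -16 to -11 counted back from the start, and a GC box was found in 32.7% of 32851 such windows. Vldlr had 1 match to AGAACA, on the minus strand at -18 to -13, where it reads TGTTCT, and 16.1% of the windows held this motif. The other motifs were found in 14.0% (AGGTCA), 0.0335% (AGGTCANAGGTCA), 6.02% (CACGTG), 33.8% (CCAAT) and 12.4% (TATAAA) of the windows and in neither of these. The GC content was 54.4% in the Slc27a4 window and 41.6% in the Vldlr window, with a median of 52.4% over all windows. A match is a description of the letters and does not show that a factor binds there.

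In TPM, a share of all transcripts that accounts for gene length, Fabp4 was highest, with a mean of 19733 TPM over the 18 libraries (rank 7 of all gene IDs). Lpl (2949 TPM, rank 29) and Cd36 (1865 TPM, rank 42) came next. Slc27a1 (374 TPM), Angptl4 (262 TPM) and Gpihbp1 (245 TPM) lay close together, and their ranges over the libraries overlapped. Vldlr (34.6 TPM) and Slc27a4 (18.3 TPM) were lowest, and their ranges, 19.5 to 43.6 TPM and 10.5 to 22.5 TPM, overlapped slightly. All values by library below are CPM scaled by TMM over the 18 libraries, and they compare libraries within a gene.

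The tumour comparison at day 21 asked how these genes stood in cachectic fat. Lpl, Vldlr and Slc27a4 were lower in every LLC library than in any PBS library, while Cd36, Fabp4 and Angptl4 were lower on average with overlapping libraries, and Gpihbp1 and Slc27a1 were higher on average with overlapping libraries. None of the 8 passed an adjusted p of 0.05 in edgeR's quasi-likelihood test with Benjamini-Hochberg adjustment over 13564 genes, where 0.0885% of all genes (12) passed. Of the 8, 3 did not overlap, against 9.70% of all genes in either direction and 4.47% in the lower one. At an unadjusted p under 0.05 there were 3 of the 8, against 23.3% of all genes, and 2 had an adjusted p under 0.1, against 5.63%. The median log2 fold change of the 8 was -0.43, beside 0.02 over all genes.

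Other tools and sets of libraries called some of the 8 at day 21, and they called far more of all genes too. DESeq2 called Lpl (-0.94, adjusted p = 0.0263), Slc27a4 (-0.41, adjusted p = 0.00993) and Vldlr (-0.79, adjusted p = 0.00521), while it called 10.7% of all genes. An edgeR fit of all 18 libraries called the same 3 genes, with 19.0% of all genes called. Without day 21 PBS library 4, edgeR called Slc27a4 and Vldlr, with 9.30% of all genes called. When that library and LLC libraries 1 and 3 were left out together, it called Vldlr, with 7.18% called.

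At day 7 the 8 genes were close to the controls: 4 were higher and 4 lower in LLC fat, the libraries of every gene overlapped, and the median log2 fold change was 0.01, beside 0.00 over all genes. None passed the adjusted threshold, which 0.00744% of 13445 genes (1) did, and 1 of the 8, Angptl4, had an unadjusted p under 0.05, against 8.51% of all genes. Non-overlapping libraries were found for 2.52% of all genes.

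**Figure D1:**
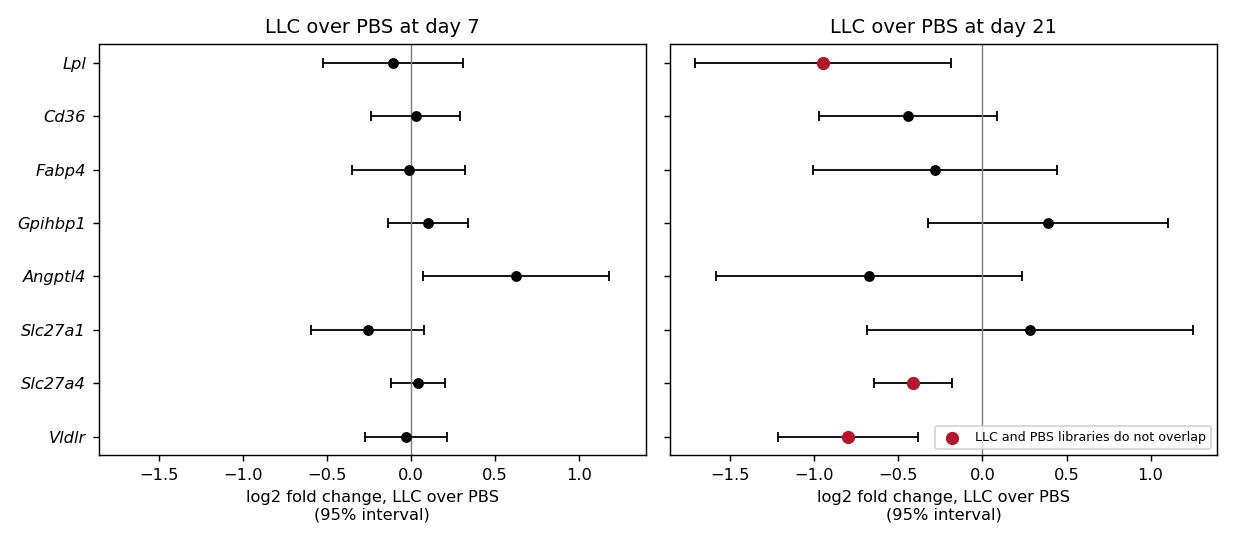
Log2 fold changes of the 8 genes, LLC over PBS, at day 7 (left) and day 21 (right), with 95% intervals from edgeR. Red points mark genes whose LLC and PBS libraries do not overlap: Lpl (-0.95), Slc27a4 (-0.41) and Vldlr (-0.80) at day 21 and none at day 7.

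Lpl lies on GRCm38 chromosome 8 at 68880491 to 68907448, plus strand, and is protein-coding. At day 21 it had 4499, 6592, 2620.4, 7148 and 6929 CPM in the LLC libraries, against 10602, 10988, 12995 and 7639 CPM in the PBS libraries. LLC library 3, the one with 2080 CPM of B cell and lymph node markers, was the lowest, and PBS library 4 was the lowest control. The mean was 5558 ± 1951 CPM in LLC (SD, n = 5) and 10556 ± 2210 CPM in PBS (SD, n = 4), a fold of 0.518. In edgeR the log2 fold change was -0.95 ± 0.34 (SE, 95% interval -1.71 to -0.18, edgeR adjusted p = 0.146). With 1 library left out it ran from -1.08 to -0.73, the last without LLC library 3, and never passed the threshold. In the authors' deposited table the log2 ratio was -0.82 with an FDR of 0.0223.

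At day 7 Lpl had 6164, 4994, 4149.7, 4284 and 7057 CPM in LLC, against 6958, 6265, 4619 and 5177 CPM in PBS, with full overlap. The log2 fold change was -0.11 ± 0.19 (interval -0.52 to 0.31, edgeR adjusted p = 0.922). The tumour effect at day 21 minus that at day 7 was -0.81 ± 0.38 for Lpl (unadjusted p = 0.0486, adjusted p = 0.271, edgeR fit of all 18 libraries). PBS libraries of day 21 were all above those of day 7 (log2 fold change 0.88 ± 0.29, adjusted p = 0.101), and LLC libraries of the 2 days overlapped (0.06 ± 0.26, adjusted p = 0.932). These comparisons share the same libraries, so they are not separate evidence. Without PBS library 4 of day 21, Lpl was called higher at day 21 than at day 7 within PBS (1.00, adjusted p = 0.0379), while the adjusted p ran from 0.124 to 0.255 without any other PBS library.

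**Figure D2:**
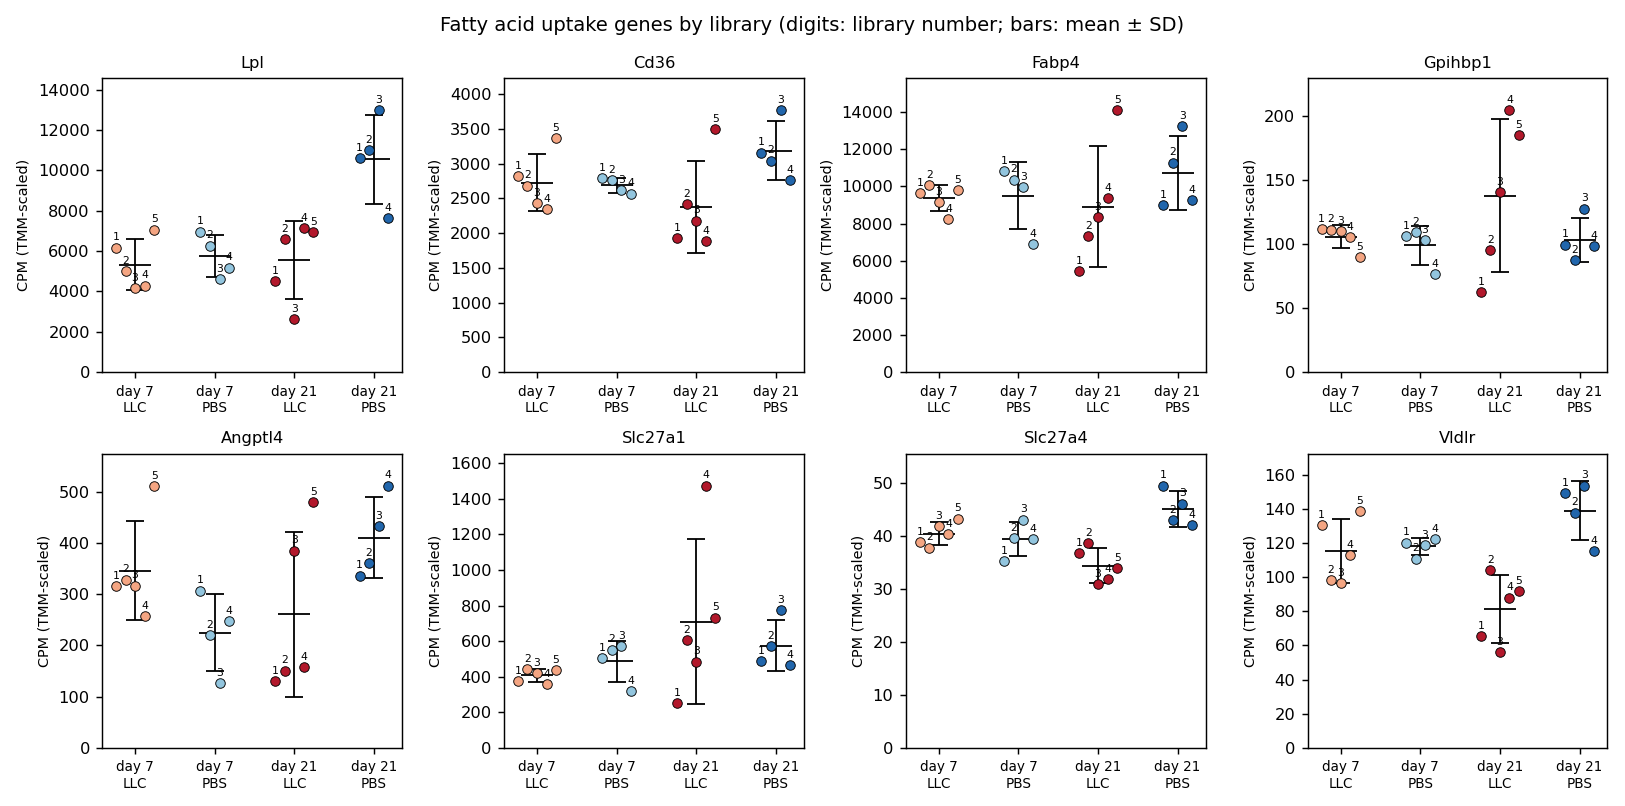
Level of each gene in each library, in TMM-scaled CPM on an axis from 0. Points are libraries with their number, coloured by group, and bars give the mean ± SD (n = 5 for LLC, n = 4 for PBS at each day). Day 21 LLC libraries lie below day 21 PBS libraries without overlap in Lpl, Slc27a4 and Vldlr.

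Gpihbp1, the endothelial anchor of the lipase, lies on chromosome 15 at 75596628 to 75599481, plus strand. At day 21 it had 62.2, 95.2, 140.8, 205.0 and 185.3 CPM in LLC, against 99.6, 87.5, 127.8 and 98.6 CPM in PBS. LLC libraries 3, 4 and 5 were above all PBS libraries and library 1 was below them all. The mean was 138 ± 59.8 CPM in LLC (SD, n = 5) and 103 ± 17.2 CPM in PBS (SD, n = 4), with a log2 fold change of 0.39 ± 0.32 (interval -0.32 to 1.11, edgeR adjusted p = 0.466). This value was 0.21 without LLC library 4 and 0.62 without LLC library 1. At day 7 it spanned 90.1 to 112 CPM in LLC and 76.8 to 110 CPM in PBS (0.10 ± 0.11, adjusted p = 0.847).

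Relative to the lipase, Gpihbp1 was higher in all day 21 LLC libraries. It had 6.62, 6.83, 26.7, 14.4 and 13.0 TPM per 100 TPM of Lpl in LLC, against 4.54, 3.76, 4.77 and 6.17 in PBS. The ratio moves with both genes, and LLC library 3, the highest, also had the lowest Lpl, 1416 TPM. At day 7 the ratio overlapped, at 5.98 to 12.7 in LLC and 7.06 to 10.7 in PBS. The ratio was formed from genes already described and was not tested.

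Of 12 endothelial markers, 11 were higher on average in day 21 LLC (median log2 fold change 0.51, 0 past the threshold). The 12 markers summed to 1593 to 2563 CPM in day 21 LLC and 1199 to 1649 CPM in day 21 PBS. LLC library 1, the lowest in Gpihbp1, had a sum inside the PBS range (1593 CPM). LLC library 2, with 95.2 CPM of Gpihbp1, had a sum above that range (2108 CPM). The part of these markers in the result was not tested. As a percent of that sum Gpihbp1 was 3.91 to 8.53 in LLC and 6.35 to 7.75 in PBS at day 21, and 4.91 to 7.13 in LLC and 5.42 to 6.83 in PBS at day 7. On this scale the groups overlapped at both days, as they did for Gpihbp1 in CPM. At day 21, LLC libraries 1, 2 and 3 (3.91, 4.51 and 5.49) were below all PBS libraries, and library 4 (8.53) was above them all.

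**Figure D3:**
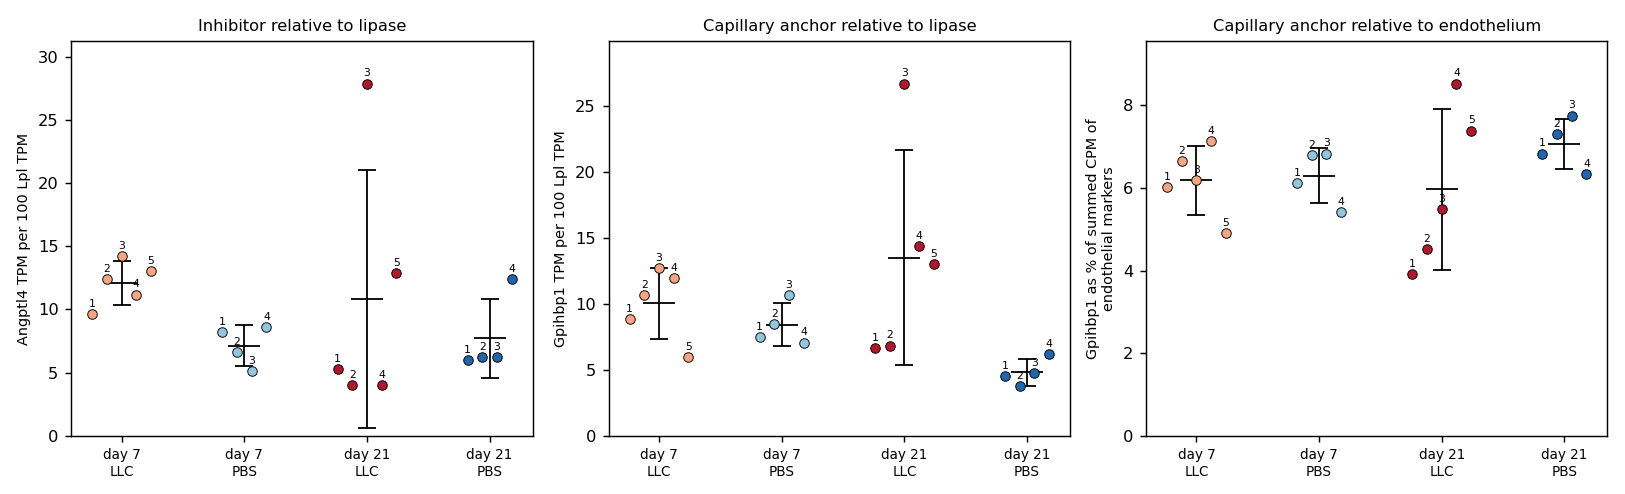
Ratios within each library by group: Angptl4 TPM per 100 Lpl TPM (left), Gpihbp1 TPM per 100 Lpl TPM (middle) and Gpihbp1 as percent of the summed CPM of 12 endothelial markers (right). Points are numbered libraries and bars give the mean ± SD. The left ratio separates LLC from PBS at day 7 and the middle one at day 21, while the right one overlaps at both days. The ratios were not tested.

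Angptl4, which codes for the secreted inhibitor of the lipase and is a known target of PPARs and of fasting, lies on chromosome 17 at 33773750 to 33781830, minus strand. At day 7 it had 315.9, 328.5, 316.8, 256.6 and 511.9 CPM in LLC, against 307.0, 220.3, 125.7 and 246.9 CPM in PBS. LLC libraries 1, 2, 3 and 5 were above all PBS libraries, and LLC library 4 was inside the PBS range. The mean was 346 ± 96.9 CPM in LLC (SD, n = 5) and 225 ± 75.5 CPM in PBS (SD, n = 4), and the log2 fold change was 0.62 ± 0.25 (interval 0.07 to 1.18, unadjusted p = 0.0299, edgeR adjusted p = 0.555). In the authors' deposited table it was 0.59 with an FDR of 0.133.

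At day 21 Angptl4 had 130.3, 150.5, 385.2, 157.7 and 480.6 CPM in LLC, against 336.4, 360.0, 433.2 and 512.2 CPM in PBS. LLC libraries 1, 2 and 4 were below all PBS libraries, and libraries 3 and 5 lay within the PBS range. On the log2 scale the difference was -0.67 ± 0.41 (interval -1.58 to 0.24, edgeR adjusted p = 0.334). The tumour effect at day 21 minus that at day 7 was -1.27 ± 0.51 (interval -2.36 to -0.19, unadjusted p = 0.0237, adjusted p = 0.198), the largest difference in size among the 8 genes and not past the threshold. Day 21 PBS libraries were all above day 7 PBS libraries (0.87 ± 0.38, adjusted p = 0.211), and the LLC libraries of the 2 days overlapped (-0.41 ± 0.34, adjusted p = 0.554, with -0.75 to -0.22 when 1 LLC library was left out).

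Per 100 TPM of Lpl, Angptl4 was 9.66, 12.4, 14.2, 11.2 and 13.0 TPM in day 7 LLC, against 8.22, 6.62, 5.11 and 8.61 TPM in day 7 PBS, with no overlap. At day 21 it was 5.28, 4.03, 27.9, 4.03 and 12.9 in LLC and 6.00, 6.24, 6.22 and 12.4 in PBS. LLC libraries 1, 2 and 4 were below all PBS libraries of that day and libraries 3 and 5 above them all. This ratio was formed from genes already described and was not tested, and Angptl4 by itself overlapped between the groups at day 7. Brown and beige fat markers were higher in LLC at day 7. Their sum was 173 to 435 CPM in LLC and 48.2 to 128 CPM in PBS. Of 9 measured markers, 8 were higher (1 past the edgeR threshold, which 0.00744% of all genes passed). By library, the sum and Angptl4 did not always go together. Day 7 LLC library 5 was the highest of its group in both, but day 7 PBS library 3 had the highest PBS sum (128 CPM) and the lowest Angptl4 (125.7 CPM). At day 21 the sum was 30.6 to 229 CPM in LLC and 168 to 349.5 CPM in PBS, and all 9 were lower (median log2 fold change -1.06, 0 past the threshold). For the tumour effect at day 21 minus that at day 7, all 9 were lower (median -3.11). There, 1 was past the edgeR threshold, which 0.415% of all genes passed. The part of these markers in the results on Angptl4 and the other genes was not tested.

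Vldlr, the receptor of very low density lipoproteins, which binds triglyceride-rich particles beside the lipase, lies on chromosome 19 at 27216484 to 27254231, plus strand. In day 21 fat it had 65.3, 104, 55.9, 88.0 and 91.9 CPM in LLC, against 149, 138, 154 and 115 CPM in PBS. LLC library 3, the one with the most B cell and lymph node markers, was the lowest of the 18, and the groups did not overlap. The mean was 81.1 ± 19.9 CPM in LLC (SD, n = 5) and 139 ± 17.2 CPM in PBS (SD, n = 4), a fold of 0.574. This gave a log2 fold change of -0.80 ± 0.19 (interval -1.22 to -0.38, unadjusted p = 0.00174), with an edgeR adjusted p of 0.0751. It was past the threshold without PBS library 4 (-0.88, adjusted p = 0.0295) and with PBS library 4 and LLC libraries 1 and 3 all left out (-0.64, adjusted p = 0.0294). It did not pass when any other single library was left out (adjusted p of 0.0539 to 0.233). The log2 fold changes were then -0.91 to -0.65, the last without LLC library 3. Vldlr did not pass with limma on log2(TPM + 1) either (adjusted p = 0.165). The authors' deposited table has a log2 ratio of -0.59 with an FDR of 0.00439.

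At day 7 Vldlr spanned 96.5 to 139 CPM in LLC and 111 to 122 CPM in PBS, and the LLC range enclosed that of PBS (-0.03 ± 0.11, interval -0.28 to 0.21, edgeR adjusted p = 0.967). The tumour effect at day 21 minus that at day 7 was -0.74 ± 0.23 (unadjusted p = 0.00454, adjusted p = 0.109). It was past the threshold without day 21 PBS library 4 (-0.83, adjusted p = 0.0372) and without day 21 LLC library 2 (-0.85, adjusted p = 0.0483), and not without any other single library (adjusted p of 0.0897 to 0.205). Within LLC, day 21 over day 7 was -0.51 ± 0.15 (adjusted p = 0.0917), and within PBS it was 0.24 ± 0.17 (adjusted p = 0.452).

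Cd36, the main fatty acid translocase of fat cells, which is also carried by macrophages and endothelium, lies on chromosome 5 at 17781690 to 17888801, minus strand. Day 21 levels were 1927, 2414, 2179.9, 1885 and 3498 CPM in LLC, against 3158, 3044, 3775 and 2765 CPM in PBS. LLC libraries 1 to 4 were below all PBS libraries and library 5 was above 3 of them. LLC over PBS, Cd36 had a log2 fold change of -0.44 ± 0.24 (interval -0.97 to 0.09, edgeR adjusted p = 0.282). Day 7 values were 2341 to 3373 CPM in LLC and 2569.5 to 2798 CPM in PBS (0.03 ± 0.12, interval -0.24 to 0.29, adjusted p = 0.976). The tumour effect at day 21 minus that at day 7 was -0.44 ± 0.25 (adjusted p = 0.36).

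Slc27a4, which codes for the fatty acid transport protein FATP4 with acyl-CoA synthetase activity, lies on chromosome 2 at 29802634 to 29817522, plus strand. Day 21 libraries had 36.9, 38.6, 30.9, 31.9 and 34.0 CPM in LLC, against 49.6, 43.0, 46.2 and 42.1 CPM in PBS. The groups did not overlap, and the spread within each was small, with a coefficient of variation of 9.51% in LLC and 7.54% in PBS. The mean was 34.5 ± 3.28 CPM in LLC (SD, n = 5) and 45.2 ± 3.41 CPM in PBS (SD, n = 4), a fold of 0.751. The log2 fold change was -0.41 ± 0.10 (interval -0.65 to -0.18, unadjusted p = 0.00279), with an edgeR adjusted p of 0.0801, and without PBS library 4 it was -0.45 with an adjusted p of 0.0451. Without any other single library the adjusted p was 0.0669 to 0.244.

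On the TPM scale, which divides by all transcripts without TMM, Slc27a4 overlapped at day 21: it spanned 10.5 to 21.1 TPM in LLC, with library 1 the highest, and 17.0 to 22.5 TPM in PBS. There the log2 difference was -0.25 ± 0.20 (limma on log2(TPM + 1), adjusted p = 0.559), and in the authors' deposited table it was -0.24 with an FDR of 0.407. Lpl (1416 to 2995 TPM in LLC, 3325 to 4963 TPM in PBS) and Vldlr (19.5 to 33.2 TPM in LLC, 34.9 to 43.2 TPM in PBS) did not overlap on that scale.

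At day 7 Slc27a4 ran from 37.9 to 43.4 CPM in LLC and from 35.3 to 43.2 CPM in PBS (0.04 ± 0.07, interval -0.12 to 0.20, edgeR adjusted p = 0.918). The tumour effect at day 21 minus that at day 7 was -0.43 ± 0.12 (unadjusted p = 0.00228, adjusted p = 0.0903), the smallest p of the 8 genes in that comparison. It passed the threshold without day 21 PBS library 4 (-0.46, adjusted p = 0.0312) and without day 21 LLC library 2 (-0.47, adjusted p = 0.0461), and not without any other single library (adjusted p of 0.0593 to 0.178). Day 21 over day 7 was -0.23 ± 0.08 within LLC (adjusted p = 0.135) and 0.20 ± 0.09 within PBS (adjusted p = 0.22).

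Slc27a1, which codes for FATP1, the transport protein moved to the fat cell surface by insulin, lies on chromosome 8 at 71568882 to 71587302, plus strand. Its day 21 levels were 252.0, 606.2, 484.1, 1475 and 732.4 CPM in LLC, against 488.3, 572.0, 775.8 and 464.3 CPM in PBS. The LLC libraries held both the lowest and the highest value of all 18, and the highest, library 4, was 5.85 times the lowest, library 1. The log2 fold change was 0.28 ± 0.43 (interval -0.69 to 1.25, edgeR adjusted p = 0.712), and it was -0.17 without LLC library 4, 0.54 without LLC library 1 and 0.46 without PBS library 3. At day 7 the values were 359 to 441 CPM in LLC and 320.0 to 573 CPM in PBS (-0.26 ± 0.15, adjusted p = 0.703, and -0.41 without PBS library 4 or -0.17 without PBS library 3).

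Among the day 21 LLC libraries, the sum of the adipocyte markers was also lowest in library 1 (16853 CPM) and highest in library 4 (50829 CPM). Among the day 21 PBS libraries, library 4 was lowest in both. There, library 3 had the highest Slc27a1, with a sum of 31930 CPM, and library 1 had the highest sum (35608 CPM). The part of these markers in the result was not tested. Over Slc27a4 the TPM ratio of Slc27a1 was 10.6, 24.8, 24.5, 71.0 and 33.2 in day 21 LLC and 15.1, 20.6, 26.2 and 17.2 in day 21 PBS. Within LLC, day 21 over day 7 was 0.80 ± 0.33 (unadjusted p = 0.0244, adjusted p = 0.194), and without day 21 LLC library 4, the one at 1475 CPM, it was 0.35 with an edgeR adjusted p of 0.514. Leaving out day 21 LLC library 1 instead gave 1.01 (adjusted p = 0.0327), and leaving out any one of the other LLC libraries of either day gave an adjusted p of 0.167 to 0.34.

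Fabp4, the fatty acid binding protein of the fat cell cytosol, lies on chromosome 3 at 10204088 to 10208576, minus strand. At day 21 it had 5426.5, 7307, 8360.3, 9380.5 and 14127 CPM in LLC, against 9010.0, 11282, 13269 and 9262 CPM in PBS. LLC libraries 1 to 3 were below all PBS libraries, and library 5 was above all of them. The log2 fold change was -0.28 ± 0.32 (interval -1.01 to 0.44, edgeR adjusted p = 0.605), and it was -0.48 without LLC library 5, -0.11 without LLC library 1 and -0.16 without PBS library 3. At day 7 the spans were 8261 to 10069 CPM in LLC and 6876 to 10827.5 CPM in PBS (-0.02 ± 0.15, adjusted p = 0.986).

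The mature adipocyte markers moved with the group as follows. At day 21 their sum was 16853 to 50829 CPM in LLC and 27287 to 35608 CPM in PBS, with 10 of 12 lower in LLC (median log2 fold change -0.39, 0 past the threshold). At day 7 it was 18295 to 23761 CPM in LLC and 19853 to 24008 CPM in PBS (9 of 12 lower, median -0.09). Macrophage markers summed to 1085 to 3718 CPM in day 21 LLC and 261 to 2757 CPM in day 21 PBS, with 12 of 12 higher (median 0.96, 0 past the threshold). Their part in the results on Lpl, Vldlr, Cd36 and Fabp4 was not tested.

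**Figure D4:**
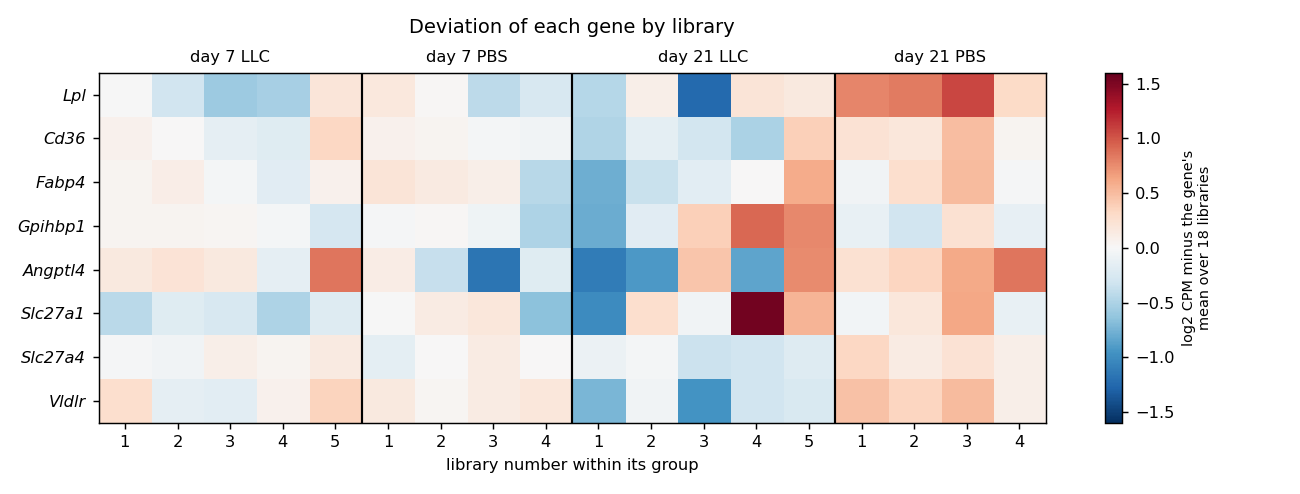
Deviation of each gene in each library from its mean over the 18 libraries, in log2 CPM (colour), with libraries in columns by group. Day 21 LLC library 3 is the lowest for Lpl and Vldlr and library 4 the highest for Slc27a1, while the day 21 PBS libraries are above the mean for Lpl and Vldlr.

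Over time, on TMM-scaled counts, each of the 8 genes was higher at day 21 than at day 7 within PBS (median log2 fold change 0.24, beside 0.01 over all genes). On the TPM scale Fabp4 (-0.03), Gpihbp1 (-0.15) and Slc27a4 (-0.01) were slightly lower within PBS (limma on log2(TPM + 1)). Within LLC, on TMM-scaled counts, 3 were higher and 5 lower (median -0.14, beside 0.05). None passed the adjusted threshold of edgeR's 18-library fit in either, against 3.21% of all genes within PBS and 1.77% within LLC. Unadjusted p-values under 0.05 were found for 3 of the 8 within PBS (20.4% of all genes) and 3 within LLC (18.6%). Lpl and Angptl4 did not overlap within PBS, both higher at day 21 (7.92% of all genes), and none within LLC (3.33%). When the tumour effect was compared between days, 4 of the 8 had an unadjusted p under 0.05 (Lpl, Angptl4, Slc27a4 and Vldlr, all lower), against 18.2% of all genes, and none passed the adjusted threshold, which 0.415% did. An adjusted p under 0.1 was found for 1 of the 8 in that comparison (3.18% of all genes) and for 1 within LLC, Vldlr (4.87%).

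Cell type markers moved with day as well. Within PBS, mature adipocyte markers summed to 27287 to 35608 CPM at day 21 and 19853 to 24008 CPM at day 7, without overlap, with 10 of 12 higher at day 21 (median 0.42, 0 past the threshold). The 9 measured brown and beige markers were all higher (median 1.501, 0 past the threshold). The 12 macrophage markers were all lower (median -0.996, 1 past the threshold), as were the 10 progenitor and fibroblast markers (median -1.36, 4 past the threshold), where 3.21% of all genes passed. Day 21 PBS library 4 differed from this. Its macrophage sum (2757 CPM) and progenitor sum (6873 CPM) lay inside the day 7 PBS ranges of 1826 to 3014 and 6217 to 8790 CPM. The other day 21 PBS libraries had 261 to 428 CPM and 1298 to 1866 CPM. Within LLC, 7 of 12 mature adipocyte markers were higher (median 0.06), and 9 of 9 brown and beige markers (median -1.05), 10 of 12 macrophage markers (median -0.27) and 9 of 10 progenitor markers (median -0.46) were lower. Their part in the differences with day was not tested.

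The calls among the 8 also moved with the tool and the libraries. DESeq2 called none of the 8 at day 7 (0.477% of all genes), Slc27a4 and Vldlr for the comparison of the tumour effect between days (5.09%), Lpl within PBS (7.64%) and Vldlr within LLC (5.69%). Without day 21 PBS library 4, edgeR called Slc27a4 and Vldlr for the comparison between days (8.64% of all genes) and Lpl within PBS (12.0%). Without day 21 LLC library 1 it called Slc27a1 within LLC (7.44%). Without day 21 LLC library 2 it called Slc27a4 and Vldlr for the comparison between days (2.65%) and Vldlr within LLC (4.32%). With PBS library 4 and LLC libraries 1 and 3 of day 21 left out together, it called Slc27a4 and Vldlr between days (8.49%), Lpl within PBS (24.4%) and Slc27a1 within LLC (12.8%).

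A further 3 lists described the rest of the route: maturation and control of the lipase (20 genes), lipoprotein receptors (10 genes) and import and activation of fatty acids (25 genes). At day 21, 49 of these 55 genes were tested, 20 were higher and 29 lower in LLC, none passed the edgeR threshold and 12 had an unadjusted p under 0.05, a share close to the 23.3% of all genes. The median log2 fold change was -0.10 for lipase maturation, 0.35 for lipoprotein receptors and -0.38 for import and activation. At day 7, 21 of 47 were higher and 26 lower, none passed, and 7 had an unadjusted p under 0.05, where 8.51% of all genes did.

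The 4 genes of these lists with the smallest p at day 21 did not pass. Fabp5, a fatty acid binding protein, averaged 90.0 ± 32.7 CPM in LLC and 202 ± 48.3 CPM in PBS (SD, n = 5 and 4), a log2 fold change of -1.19 ± 0.26 (edgeR adjusted p = 0.0691). The caveolae genes Cav1 (1010.1 ± 248 CPM in LLC, 1985 ± 328 CPM in PBS, -0.99 ± 0.23) and Cav2 (282.5 ± 73.3 CPM in LLC, 540 ± 108 CPM in PBS, -0.95 ± 0.22) had adjusted p-values of 0.0751. Pcsk5, a proprotein convertase that cleaves and inactivates lipoprotein lipase family enzymes, averaged 38.2 ± 9.84 CPM in LLC and 20.6 ± 2.62 CPM in PBS (0.87 ± 0.20, adjusted p = 0.0751). At day 7 the 4 with the smallest p were Acsl5 (0.23 ± 0.06, adjusted p = 0.399), Slc27a2 (2.11 ± 0.63, 0.408), Sdc4 (0.63 ± 0.19, 0.408) and Scarb1 (0.26 ± 0.10, 0.553), given as log2 fold change and adjusted p, and none passed. Slc27a2, which is also one of the brown and beige markers, was at a low level. It averaged 2.37 ± 1.71 CPM in LLC and 0.547 ± 0.365 CPM in PBS (SD).

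When that effect was compared between days, 49 genes of the 3 lists were tested, none passed (0.415% of all genes did), and the 4 with the smallest p were Pcsk5 (1.09 ± 0.24, edgeR adjusted p = 0.0546), Fabp5 (-1.31 ± 0.32, 0.0701), Cav2 (-0.83 ± 0.25, 0.103) and Cav1 (-0.81 ± 0.25, 0.107). Within PBS, day 21 over day 7, 2 of 49 passed, close to the 3.21% of all genes. Pcsk5 fell by 0.74 ± 0.18 on the log2 scale (adjusted p = 0.0364), and Lrp1, a receptor for lipoprotein remnants, fell by 0.71 ± 0.18 (727.0 ± 114 CPM at day 21, 1188 ± 177 CPM at day 7, adjusted p = 0.0424). Fabp1 (4.40 ± 1.23, 0.0596) and Hspg2 (-0.65 ± 0.18, 0.0624) followed without passing. Fabp1 was at a low level, 4.265 ± 3.025 CPM at day 21 and 0.191 ± 0.25 CPM at day 7 (SD), with overlapping libraries.

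Within LLC, Cav1 alone of the 49 passed, about the 1.77% of all genes that did. It had 1010.1 ± 248 CPM at day 21 and 1658 ± 210 CPM at day 7 (-0.72 ± 0.16, edgeR adjusted p = 0.042). Hspg2 (-0.62 ± 0.16, 0.0641), Lipg (1.58 ± 0.47, 0.0897) and Cav2 (-0.54 ± 0.16, 0.0992) had the next smallest adjusted p-values. Lipg was at a low level, 5.67 ± 4.63 CPM at day 21 and 1.90 ± 0.753 CPM at day 7 (SD), with overlapping libraries.

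Genes known to respond to fasting or PPARs were looked at because Angptl4 is one. Of 12 listed, 11 were tested. At day 7, 9 were higher in LLC (median log2 fold change 0.35), and at day 21, 8 were lower (median -0.44), with none past the edgeR threshold at either day. Plin2, a lipid droplet coat protein, was the 1 gene of the 11 past the threshold when the tumour effect was compared between days (-1.30 ± 0.26, edgeR adjusted p = 0.0415). Of all genes, 0.415% passed there. Plin2 was also called lower at day 21 than at day 7 within LLC (-0.79 ± 0.17, edgeR adjusted p = 0.037), where 1.77% of all genes passed. Of 12 glucocorticoid-responsive genes, 10 were higher in LLC at day 7 (median 0.26) and 10 at day 21 (median 0.80), none past the threshold. Mt1 (1.47, edgeR adjusted p = 0.0333) and Mt2 (1.98, edgeR adjusted p = 0.0428), which code for metallothioneins, were called higher at day 21 than at day 7 within LLC. They were 2 of the 12, beside 1.77% of all genes. Plin2, Mt1 and Mt2 were named after seeing values.

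The genes whose pattern over the 18 libraries was most like each of the 8 were found among 13040 genes by Pearson correlation of log2 CPM. These libraries share groups, days and tissue makeup, so the values describe the pattern. Slc27a1 had the closest match, Cnbp (r = 0.96), Lpl was closest to Ptdss2 (r = 0.95, Spearman's rho = 0.96), Vldlr to Prkaca (r = 0.95, rho = 0.95) and Cd36 to Tspan12 (r = 0.92, rho = 0.94). Fabp4 was closest to Arxes2 (r = 0.91, rho = 0.75), Slc27a4 to Ptpn11 (r = 0.91, rho = 0.82), Gpihbp1 to Cyp2d22 (r = 0.91, rho = 0.60) and Angptl4 to Pck1 (r = 0.88, rho = 0.90), which codes for the cytosolic enzyme of glyceroneogenesis. Among the 28 pairs of the 8 genes the highest correlations were Gpihbp1 with Slc27a1 (r = 0.79, rho = 0.45) and Slc27a4 with Vldlr (r = 0.78, rho = 0.78), and the lowest was Gpihbp1 with Slc27a4 (r = -0.48).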

How the data were processed

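Poly(A) RNA was sequenced from 18 libraries. Per the submitters' processing notes, reads were trimmed with fastp 0.23.0 and quantified with RSEM on mm10 (GRCm38). Aligner, annotation release and comparison tool are named in no source used here. The authors deposited expected counts per gene, already whole numbers, and TPM, with a table of their log2 ratio of mean TPM and its p-value and FDR. No strand-marking step is named in the labels, but no other annotated gene (GENCODE vM21) overlaps any of the 8. All value columns were assigned to a sample (0 left out).

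Counts were rounded (no entry changed) and tested in R 4.3.3 by edgeR 4.0.16 after filterByExpr and TMM scaling, with the quasi-likelihood F test and Benjamini-Hochberg adjustment over all genes tested at 0.05. Tumour comparisons used the 9 libraries of a day, and the difference between days and the day comparisons used 1 fit of 18. The SE is the log2 fold change over the root of F. Alternatives used DESeq2 1.42.0, limma 3.58.1 on log2(TPM + 1) or log2(TPM + 0.1), other scalings and filters, and each library left out. The scripts were tested on simulated data. Library totals were 14566155 to 18969387 counts, and the SE also holds the spread between the libraries of a group.

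The 8 genes and the lists were chosen with earlier results of these data known. Named list genes are those past the threshold, or else the 4 with the smallest p (lipase, receptor and import lists). Genes named from the fasting and glucocorticoid lists were chosen after seeing values. Deviations of same-numbered LLC and PBS libraries of day 7 were positively correlated (r = 0.25, 0.15, 0.56 and 0.18 for numbers 1 to 4). LLC libraries 3 and 4 were most like the PBS library of their own number, but LLC libraries 1 and 2 were most like PBS libraries 2 and 4. The numbers therefore need not mark pairs. A block on the number was tried, and it changed no call of the 8 genes. No 2 libraries of the same group had matching counts (32 pairs compared).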

Additional observations from a re-analysis of the deposited data

Results flagged for a closer look

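Each of the 8 genes was checked in each of the 4 groups for a library far from the others of its group, 32 groups in all, of which 2 were flagged, while chance flags about 1 in 20. Both are day 7 LLC library 5. Its Gpihbp1 level was 90.1 CPM, against 106 to 112 CPM in the other 4 LLC libraries of that day. Its Angptl4 level was 512 CPM, against 257 to 329 CPM in the others. The same library had the highest sum of brown and beige fat markers in its group, 435 CPM, and the lowest sums of progenitor markers, 3102 CPM, and macrophage markers, 1384 CPM. The part of these in the flags was not tested.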

How the results depend on the processing

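With edgeR, 1, 12, 58, 449 and 248 genes passed for the day 7 comparison, the day 21 comparison, the difference between days, the day comparison within PBS and that within LLC, and none of the 8 genes in any. DESeq2 called 77, 1540, 726, 1116 and 812 genes, and of the 8 it called 3 at day 21 (Lpl, Slc27a4, Vldlr), 2 for the difference (Slc27a4, Vldlr), 1 within PBS (Lpl) and 1 within LLC (Vldlr). A fit of all 18 libraries called 0 genes at day 7 and 2660 at day 21, with the same 3 of the 8. limma on log2(TPM + 1) called 29 at day 21, 19 for the difference and 27 within LLC, and on log2(TPM + 0.1) 56, 23 and 24. No filter gave 139 within LLC. Leaving out day 21 PBS library 4 and LLC libraries 1 and 3, chosen after seeing the data, gave 962 at day 21 (1 of the 8), 1190 for the difference (2), 3423 within PBS (1) and 1789 within LLC (1). Without both day 7 libraries 3, also chosen then, 0 passed at day 7. The causes were not tested.

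The replicate block on numbers 1 to 4 called 2 genes at day 21, where same numbers did not deviate together (r = -0.23, 0.35, 0.11 and -0.24), 1 at day 7 and 75 for the difference, and a replicate block across days called 42 within LLC and 626 within PBS. The block changed no call of the 8.

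Leaving out 1 library gave 0 to 3 genes at day 7, 0 to 1277 at day 21 (1277 without PBS library 4), 6 to 1222 for the difference, 41 to 1692 within PBS and 15 to 1036 within LLC. Of the 8 it called 0 to 0 at day 7, 0 to 2 at day 21, 0 to 2 for the difference, 0 to 1 within PBS and 0 to 1 within LLC.

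Small log2 effects turned. At day 7, Cd36 was -0.01 with limma and -0.07 with the block, and without both libraries 3 Fabp4 was 0.02 and Vldlr 0.03. Within PBS, limma gave Fabp4 -0.03, Gpihbp1 -0.15 and Slc27a4 -0.01. Within LLC, Lpl was -0.06 with limma and 0.00 with the block, and Fabp4 0.14 without the 3 libraries. With the block, Gpihbp1 was 0.00 for the difference. Leaving out 1 library, the log2 fold change ranged at day 7 from -0.14 to 0.05 (Fabp4), -0.01 to 0.09 (Slc27a4), 0.00 to 0.15 (Gpihbp1), -0.11 to 0.02 (Vldlr), -0.23 to 0.00 (Lpl) and -0.06 to 0.08 (Cd36), at day 21 from -0.17 to 0.54 (Slc27a1), within PBS from -0.05 to 0.14 (Gpihbp1), and within LLC from -0.05 to 0.23 (Lpl) and -0.30 to 0.05 (Fabp4).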
